A study of Homo sapiens with 12 samples.

Results

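The genes described here are 34 genes of the cholesterol and fatty acid synthesis pathways that are controlled by the sterol regulatory element-binding proteins (SREBPs). They were taken as a list of symbols and matched to the Ensembl identifiers of a gene count table, and 34 of 34 were found among 58302 genes. The list holds 17 enzymes of cholesterol synthesis, 4 genes of sterol regulation and transport, and 13 enzymes of fatty acid synthesis and modification. A filter on low counts kept 33 of the 34, against 18035 of the 58302 genes. The gene it removed was ME1, a malic enzyme that makes NADPH in the cytosol, which had at most 1 read in any of the 12 libraries. The list rests on gene function and not on a measured threshold, but it was chosen with earlier results of these data known. The shares of members called below are therefore descriptions.

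The study set a resistant line against a sensitive one, each after GNE-7883 or the solvent DMSO, with 3 RNA-seq libraries in each of the 4 groups. The sensitive cells were NCI-H226, a human mesothelioma line that lacks the tumour suppressor NF2, a brake on the YAP and TAZ coactivators. The resistant cells, NCI-H226_CL3, were raised from that line by exposure to a TEAD inhibitor at concentrations raised stepwise, with 0.25 µM at the start and 3 µM at the end. GNE-7883 is a small-molecule inhibitor of the TEAD transcription factors, through which YAP and TAZ reach DNA. The groups were therefore resistant cells with GNE-7883, resistant cells with DMSO, sensitive cells with GNE-7883 and sensitive cells with DMSO. All 4 lacked NF2 and grew in RPMI medium with 10% fetal bovine serum. There was 1 resistant line, so its differences from NCI-H226 are those of 1 derived line. The sources used here give neither the dose and length of the final incubation nor a statement that replicates were grown separately. The p-values below therefore weigh group differences only against the scatter of these libraries, and that scatter may be technical.

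SREBPs are transcription factors made as precursors in the membrane of the endoplasmic reticulum. When membrane sterol is low, the escort protein SCAP carries them to the Golgi, where proteases release the part that enters the nucleus; when sterol is ample, INSIG proteins hold the SCAP complex back. SREBF2 encodes the form that acts mainly on cholesterol genes and SREBF1 the forms that act mainly on fatty acid genes. Cholesterol is built from acetyl-CoA through mevalonate, farnesyl diphosphate, squalene and lanosterol, and fatty acids are built from the same acetyl-CoA through malonyl-CoA and palmitate, then lengthened and desaturated.

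Promoter sequences of members are shown first because the regulation named above acts on them and because members share a sequence feature there. RefSeq promoters on GRCh38.p14 were at hand for 31 of the 34 members, and the 250 bases before the start were searched on both strands for 3 motifs. For 29 of the 31 the bases after that start were found in a GENCODE transcript of the gene. For IDI1 and FADS2 they were not, so these windows may belong to another start than the counted transcripts, and both hold no CCAAT box. The core of the sterol regulatory element, TCACNCCAC, was found in 1 of 31 member promoters, that of SREBF2, at 133 bases before the start, against 0.883% of 35116 promoters in the table. The CCAAT box, the letters bound by NF-Y, was found in 21 of 31 member promoters, or 67.7%, against 32% of all promoters and 32.4% of the 16975 promoters that belong to genes tested here. By group, 12 of 15 cholesterol enzyme promoters, 3 of 4 sterol regulation promoters and 6 of 12 fatty acid enzyme promoters held it. The TEAD motif GGAATG was found in 5 of 31 member promoters, or 16.1%, against 11.9% of all promoters. These are matches of letters, not binding sites, and the sterol element core and the CCAAT box of SREBF2 do not overlap. An element with other letters or outside the 250 bases would be missed, and FDFT1, SQLE and FASN were not searched.

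The 6 sequences below are the 250 bases before the start, 5′ to 3′ on the gene's strand, and capitals mark the sterol element core and the CCAAT box in either orientation (CCAAT or ATTGG). SREBF2, at chr22:41832855-41833104 (+ strand), is shown as the 1 member with the sterol element core. HMGCS1 at chr5:43313413-43313662 (- strand), MVK at chr12:109573544-109573793 (+ strand), FDPS at chr1:155308616-155308865 (+ strand) and NSDHL at chrX:152830813-152831062 (+ strand) are cholesterol enzymes that fell in sensitive cells and hold several CCAAT boxes. In NSDHL a pair of the boxes, in opposite orientations, share letters. ACACB, at chr12:109116337-109116586 (+ strand), is a fatty acid enzyme that rose there and holds none of the 3 motifs in this window. Box and direction did not divide the members strictly. Of those that fell there, CYP51A1, ELOVL6 and IDI1 hold no CCAAT box, and the others with a promoter at hand hold at least 1. Of those that rose there, ACACB, PMVK, SREBF1 and FADS1 hold none, while ELOVL5 holds 2 and LSS 1. A link between box and direction was not tested.
SREBF2: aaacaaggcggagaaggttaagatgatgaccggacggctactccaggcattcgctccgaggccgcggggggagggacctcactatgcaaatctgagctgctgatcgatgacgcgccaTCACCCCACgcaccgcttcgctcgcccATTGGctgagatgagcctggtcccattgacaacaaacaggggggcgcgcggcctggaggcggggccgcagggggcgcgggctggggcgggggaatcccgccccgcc
HMGCS1: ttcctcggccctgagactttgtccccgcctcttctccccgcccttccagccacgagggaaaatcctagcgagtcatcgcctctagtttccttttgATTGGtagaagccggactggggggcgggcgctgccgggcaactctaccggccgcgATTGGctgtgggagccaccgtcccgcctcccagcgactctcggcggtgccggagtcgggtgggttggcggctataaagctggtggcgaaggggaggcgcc
MVK: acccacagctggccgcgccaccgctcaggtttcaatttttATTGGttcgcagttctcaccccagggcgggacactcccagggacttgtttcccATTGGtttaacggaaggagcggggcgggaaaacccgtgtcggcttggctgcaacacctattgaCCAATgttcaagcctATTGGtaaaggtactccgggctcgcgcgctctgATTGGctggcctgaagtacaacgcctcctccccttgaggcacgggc
FDPS: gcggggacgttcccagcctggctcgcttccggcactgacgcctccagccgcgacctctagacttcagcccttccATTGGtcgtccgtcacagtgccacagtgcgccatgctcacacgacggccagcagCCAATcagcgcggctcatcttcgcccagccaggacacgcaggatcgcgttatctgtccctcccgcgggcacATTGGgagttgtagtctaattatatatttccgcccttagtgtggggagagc
NSDHL: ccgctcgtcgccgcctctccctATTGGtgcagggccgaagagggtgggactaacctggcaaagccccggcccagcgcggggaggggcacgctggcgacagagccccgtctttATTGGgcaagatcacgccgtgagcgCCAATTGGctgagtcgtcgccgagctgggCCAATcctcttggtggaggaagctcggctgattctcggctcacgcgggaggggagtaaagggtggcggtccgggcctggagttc
ACACB: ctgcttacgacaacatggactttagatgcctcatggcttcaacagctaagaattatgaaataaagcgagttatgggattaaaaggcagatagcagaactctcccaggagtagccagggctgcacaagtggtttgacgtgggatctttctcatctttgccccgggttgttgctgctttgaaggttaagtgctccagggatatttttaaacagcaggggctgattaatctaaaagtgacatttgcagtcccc

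Library totals ran between 31878934 and 46962645 gene counts, so that 3 counts stood for 0.0639 to 0.0941 CPM (counts scaled to the library total). Levels below are CPM scaled by the trimmed mean of M-values (TMM) unless given per kilobase, and n = 3 in each group. CCN2, a direct YAP and TEAD target, checked the drug: it stood at 69.3 ± 1.61 CPM in resistant cells with GNE-7883 against 102 ± 4.27 CPM in resistant cells with DMSO, and at 8.49 ± 0.299 CPM in sensitive cells with GNE-7883 against 64.3 ± 0.934 CPM in sensitive cells with DMSO (SD). Sensitive DMSO replicate 2 stood apart, with a standard deviation of 0.189 for its log2 deviations from its group over 10859 genes, against 0.0539 to 0.117 in the other libraries. Genes of DNA replication moved with the groups: 14 of 14 fell with GNE-7883 in sensitive cells, where their summed level was 686 ± 9.44 CPM with GNE-7883 and 1474 ± 48.2 CPM with DMSO, while the sums were 1491 ± 5.26 CPM with GNE-7883 and 1598 ± 10.5 CPM with DMSO in resistant cells. Counts of mitochondrial genes were 1.01% ± 0.0732 of the total in sensitive cells with GNE-7883 and 0.556% ± 0.0568 in sensitive cells with DMSO. The part of either in the results below was not tested.

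All 8 mesothelial markers looked at passed the low-count filter, and their summed level was 1430.3 ± 66.4 CPM in resistant cells with GNE-7883, 1054 ± 64.2 CPM in resistant cells with DMSO, 3687 ± 105 CPM in sensitive cells with GNE-7883 and 2551 ± 207 CPM in sensitive cells with DMSO. CALB2 and UPK3B, with means of 881 and 528 CPM over the 12 libraries, were the largest parts of this sum. The markers went different ways. With GNE-7883 in sensitive cells 6 were called higher and 2 lower, against 29.8% and 28.4% of all genes tested. In DMSO 6 were called lower and 1 higher in resistant cells, against 24.4% and 24.2% of all genes. The log2 fold changes there ran from -6.75 to 0.389. The labels also name lung epithelium as the tissue. The 6 lung epithelial markers summed to between 0.152 and 2.21 CPM in a library, with 1.48 ± 0.641 CPM in sensitive cells with GNE-7883 and 0.267 ± 0.0711 CPM in sensitive cells with DMSO. Of the 2 that passed the filter, SFTPC was called higher there, at 0.724 CPM with GNE-7883 and 0.00793 CPM with DMSO, and the part of this in the results below was not tested. The airway and alveolar regulator NKX2-1 had 0 counts in all libraries but 1. Of 7 blood and endothelial markers, CD3E and CD68 were at 0 in all 12 libraries. The 3 that passed the filter were VWF, PECAM1 and CDH5, with means of 2.08, 0.284 and 0.165 CPM over the 12 libraries. With GNE-7883 in sensitive cells 1 of these 3 was called higher and 1 lower (edgeR, adjusted p under 0.05). Of all genes tested 29.8% were called higher there and 28.4% lower. In bulk RNA, fewer cells that make a transcript and less of it per cell cannot be told apart.

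Cholesterol synthesis genes fell widely when sensitive cells received GNE-7883. Of 17 enzymes tested, 13 fell and 2 rose at an adjusted p under 0.05, where 28.4% of the 18035 genes tested fell and 29.8% rose, 58.1% in all (edgeR quasi-likelihood test, two-sided, Benjamini-Hochberg adjustment over all genes tested). The median log2 fold change of the 17 was -0.53, against 0.02 over all genes tested. The falls reached every stage of the pathway, from the mevalonate steps through squalene to the last sterol reductions.

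In the mevalonate stage, MVK, the kinase that phosphorylates mevalonate (chr12:109573255-109598117, + strand, GRCh38 with GENCODE 29 gene models, as for all gene positions here), had 22.1, 19.5 and 23.2 CPM in sensitive cells with GNE-7883 and 38.7, 45.8 and 37.9 CPM in sensitive cells with DMSO. Its 3 GNE-7883 libraries lay below all 3 DMSO libraries, and it fell by 0.92 on the log2 scale (SE 0.099, adjusted p = 9.65e-07). MVD, the decarboxylase that yields isopentenyl diphosphate (chr16:88651935-88663161, - strand), had 28.5, 21.2 and 28.6 CPM with GNE-7883 and 47.9, 59.2 and 45.1 CPM with DMSO. The groups again did not overlap, with a log2 fold change of -0.96 ± 0.13 (SE, adjusted p = 1.43e-05). FDPS, which joins isoprene units into farnesyl diphosphate (chr1:155308748-155320666, + strand), had 57.8, 57.4 and 57.1 CPM with GNE-7883 and 108, 120.1 and 103 CPM with DMSO, a log2 fold change of -0.94 ± 0.062 (SE, adjusted p = 3.16e-09). The FDPS values of the GNE-7883 libraries were nearly identical. HMGCS1, the synthase that makes HMG-CoA and opens the pathway, fell by 0.74 and IDI1, the isopentenyl diphosphate isomerase, by 0.56 on the log2 scale. PMVK, the kinase between MVK and MVD, went the other way at 11.96, 11.6 and 10.7 CPM with GNE-7883 and 7.88, 10.9 and 8.73 CPM with DMSO. Its call as higher (log2 fold change 0.32 ± 0.12, SE, adjusted p = 0.0304) rests on groups that overlap, and leaving out sensitive DMSO replicate 1 gave adjusted p = 0.141, replicate 3 0.0821, sensitive GNE-7883 replicate 1 0.089, replicate 2 0.0755 and resistant DMSO replicate 1 0.0503.

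At the branch to squalene, FDFT1, squalene synthase (chr8:11795573-11839309, + strand), had 152, 154 and 159 CPM in sensitive cells with GNE-7883 and 311, 340.2 and 297 CPM in sensitive cells with DMSO. This was the largest fall among the 17 enzymes, 2.04-fold or 1.03 on the log2 scale (SE 0.056, adjusted p = 2.98e-10), with no overlap of the groups. SQLE, the squalene monooxygenase that follows it, had 186, 183 and 193 CPM with GNE-7883 and 199, 186 and 191 CPM with DMSO. Its groups overlapped and it did not pass the test (log2 fold change -0.04, 95% interval -0.13 to 0.06, adjusted p = 0.565). LSS, lanosterol synthase (chr21:46188141-46228824, - strand), had 360.0, 335 and 348 CPM with GNE-7883 and 270.0, 274 and 262 CPM with DMSO. All 3 GNE-7883 libraries were above the DMSO libraries, so LSS rose, by 0.37 ± 0.067 on the log2 scale (SE, adjusted p = 1.96e-04).

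After lanosterol, the sterol isomerase EBP had 56.4, 56.5 and 55.4 CPM in sensitive cells with GNE-7883 and 84.6, 102 and 83.7 CPM in sensitive cells with DMSO, and fell by 0.68 on the log2 scale. The other calls were falls of 0.61 for the sterol dehydrogenase NSDHL, 0.53 for the methyl sterol oxidase MSMO1, 0.49 for the lanosterol demethylase CYP51A1, 0.47 for the keto-sterol reductase HSD17B7, 0.42 for the late-step reductase DHCR7 and 0.17 for the sterol desaturase SC5D. The SC5D groups overlapped, and its call (adjusted p = 0.0466) was lost without any 1 of sensitive DMSO replicate 1 or 3 or of sensitive GNE-7883 replicates 1, 2 and 3, with adjusted p between 0.065 and 0.193. The sterol reductase TM7SF2 had 46.1, 44.01 and 47.6 CPM with GNE-7883 and 40.05, 46.4 and 39.3 CPM with DMSO, and did not pass the test (adjusted p = 0.188), but was called higher without sensitive DMSO replicate 2 (adjusted p = 0.0185).

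**Figure D1:**
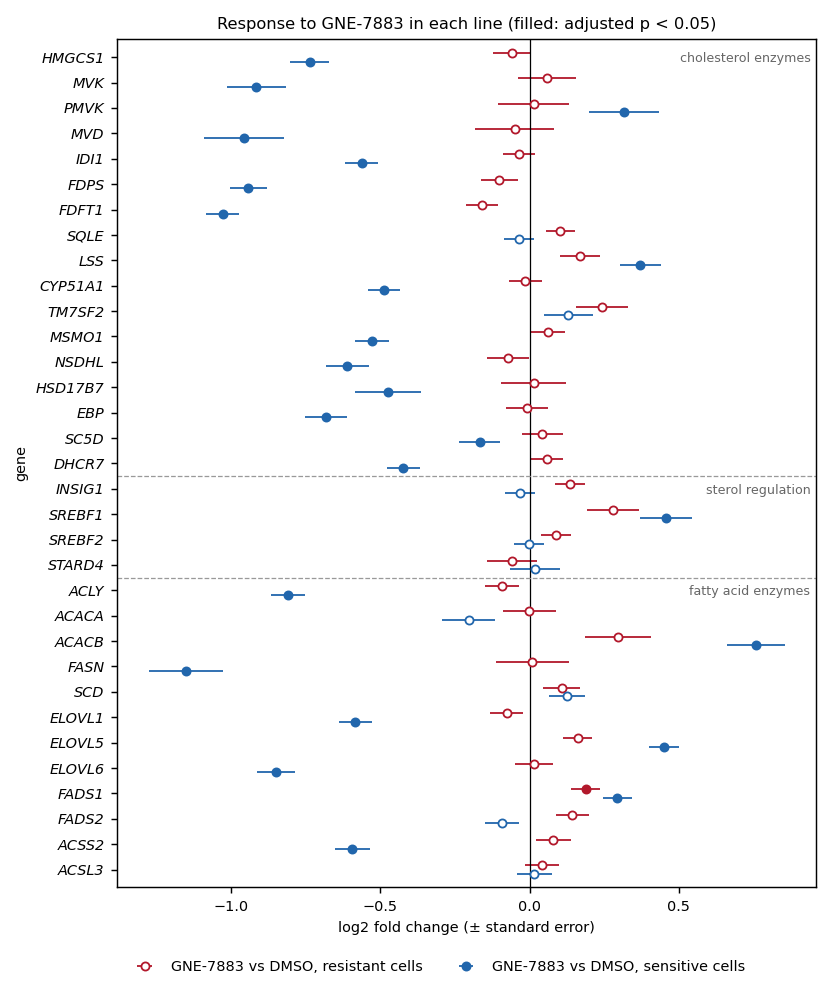
Log2 fold change of GNE-7883 against DMSO (x axis, with its standard error as a bar) for the 33 members tested (y axis), in resistant cells (red) and sensitive cells (blue). Filled points passed an adjusted p under 0.05 in edgeR: the blue points of most cholesterol enzymes lie left of 0, down to -1.03 for FDFT1, while the red points lie near 0 and 1 of them, FADS1, is filled.

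Fatty acid enzymes were called in both directions in sensitive cells given GNE-7883. Of 12 tested, 5 fell and 3 rose (edgeR, adjusted p under 0.05), with a median log2 fold change of -0.15, where 28.4% of all genes tested fell and 29.8% rose. The number called is thus near the 58.1% of all genes. The members that fell were FASN, ACLY, ELOVL6, ACSS2 and ELOVL1, and those that rose were ACACB, ELOVL5 and FADS1. FASN, fatty acid synthase (chr17:82078333-82098332, - strand), had 273, 204 and 263 CPM with GNE-7883 and 552, 548 and 545 CPM with DMSO. Its fall of 1.15 on the log2 scale (SE 0.12, adjusted p = 9.29e-07) was the largest of all 33 members. ACLY, which splits citrate to give cytosolic acetyl-CoA (chr17:41866908-41930542, - strand), had 311, 289 and 300.2 CPM with GNE-7883 and 555, 484 and 538 CPM with DMSO, and fell by 0.81 (SE 0.057, adjusted p = 7.26e-09). ELOVL6, which lengthens palmitate (chr4:110045846-110199199, - strand), had 27.9, 26.6 and 27.7 CPM with GNE-7883 and 50.8, 46.3 and 50.99 CPM with DMSO, and fell by 0.85 (SE 0.065, adjusted p = 1.67e-08). In each of these 3 genes the groups stood clear of each other. ACSS2, which makes acetyl-CoA from acetate, had a log2 fold change of -0.59 ± 0.059 (SE, adjusted p = 3.31e-07), and ELOVL1, an elongase of very long saturated chains, fell by 0.58.

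ACACB, the acetyl-CoA carboxylase of the mitochondrial surface, whose malonyl-CoA restrains fatty acid import (chr12:109116595-109268226, + strand), had 18.7, 17.5 and 18.7 CPM in sensitive cells with GNE-7883 and 11.4, 9.49 and 11.6 CPM in sensitive cells with DMSO. It rose by 0.76 ± 0.097 on the log2 scale (SE, adjusted p = 5.83e-06), with no overlap. ELOVL5, an elongase of polyunsaturated chains (chr6:53267398-53349179, - strand), had 558, 582 and 577 CPM with GNE-7883 and 433, 397 and 427 CPM with DMSO, a rise of 0.45 ± 0.049 (SE, adjusted p = 1.00e-06). FADS1, a desaturase of the same chains, had 834, 819 and 840.1 CPM with GNE-7883 and 709, 636 and 688 CPM with DMSO, a rise of 0.29 ± 0.049 (SE, adjusted p = 8.38e-05). In both the 3 GNE-7883 libraries were the higher ones. The remaining 4 enzymes did not pass the test. Their log2 fold changes were -0.20 for ACACA, the cytosolic acetyl-CoA carboxylase, -0.09 for FADS2, the partner desaturase of FADS1, 0.13 for SCD, the stearoyl-CoA desaturase, and 0.02 for ACSL3, an acyl-CoA synthetase of lipid droplets. ACACA missed the threshold narrowly (adjusted p = 0.0603), and without sensitive DMSO replicate 2 it was called lower (adjusted p = 3.01e-05). Leaving out sensitive GNE-7883 replicate 1 or any 1 resistant library also brought ACACA under the threshold, with adjusted p between 0.0359 and 0.0479. Without sensitive DMSO replicate 1 or 3, SCD was called higher (adjusted p = 0.0385 and 0.0473), and without resistant GNE-7883 replicate 2 FADS2 was called lower (adjusted p = 0.0395).

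**Figure D2:**
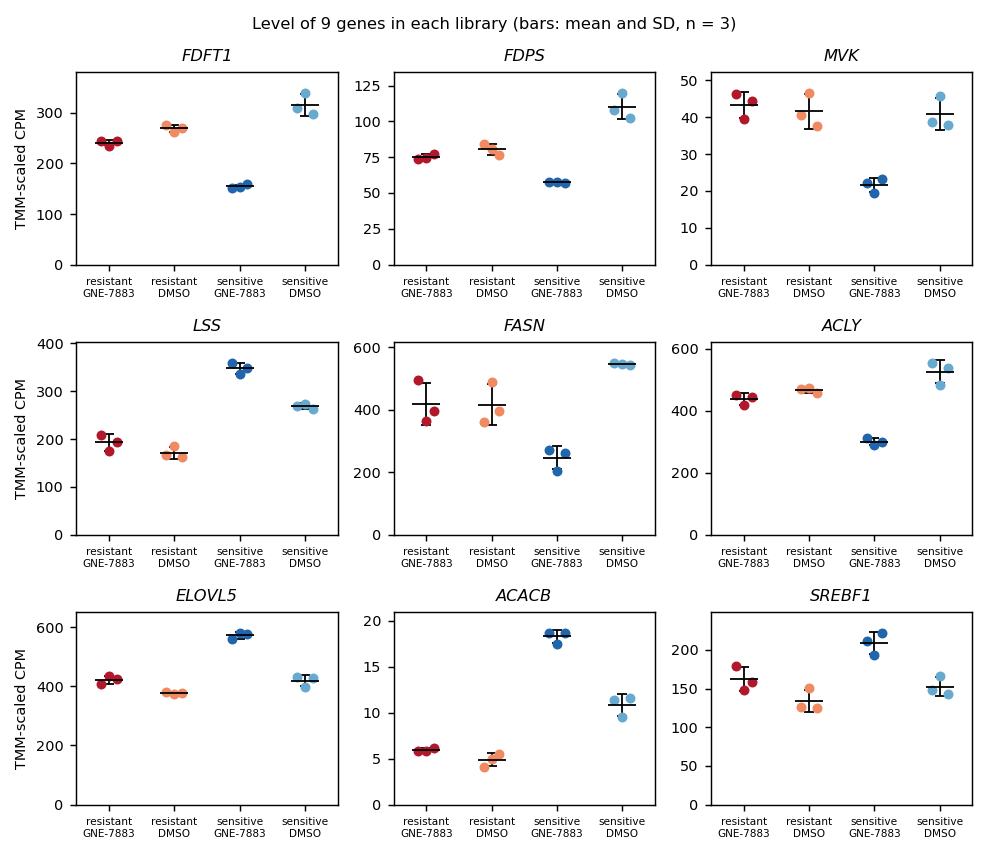
TMM-scaled CPM (y axis, from 0) of 9 members in each library, by group (x axis), with points for libraries and bars for the mean and SD of n = 3. FDFT1, FDPS, MVK, FASN and ACLY are lowest in sensitive cells with GNE-7883, while LSS, ELOVL5, ACACB and SREBF1 are highest there.

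Among the regulators, SREBF1 rose in sensitive cells and SREBF2 did not pass the test. SREBF1 (chr17:17810399-17837002, - strand) had 212, 194 and 222 CPM with GNE-7883 and 148, 166 and 143 CPM with DMSO. It rose by 0.46 ± 0.087 on the log2 scale (SE, adjusted p = 3.17e-04), with no overlap of the groups. SREBF2 (chr22:41833079-41907308, + strand) had 271, 257 and 271 CPM with GNE-7883 and 272, 258 and 269 CPM with DMSO. The log2 fold change of SREBF2 was 0.00 with a 95% interval of -0.10 to 0.10 (adjusted p = 0.984). INSIG1, which retains SCAP and is itself an SREBP target (chr7:155297776-155310235, + strand), had 128, 129 and 135 CPM with GNE-7883 and 137, 129.9 and 134 CPM with DMSO, and a log2 fold change of -0.03 with an interval of -0.13 to 0.07 (adjusted p = 0.627). The SREBF2 and INSIG1 groups overlapped. STARD4, a carrier of cholesterol between membranes, had a log2 fold change of 0.02 (adjusted p = 0.865).

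In resistant cells the same drug left few calls among these genes. Of 33 members, 1 was called higher and none lower, where 5.25% of the genes tested rose and 3.97% fell, 9.22% in all (edgeR, adjusted p under 0.05). At an unadjusted p under 0.05 there were 8 members higher and 1 lower. For the 17 cholesterol enzymes edgeR called 0 in either direction, with 2 higher and 1 lower at an unadjusted p under 0.05; DESeq2 also called 0 in either direction, and limma voom with quality weights called 3 higher and 2 lower. The median log2 fold change was 0.01 for the cholesterol enzymes and 0.06 for the fatty acid enzymes, against 0.00 for all genes tested. FADS1 was the 1 called member, at 514, 529.6 and 531 CPM in resistant cells with GNE-7883 and 469, 452 and 461 CPM in resistant cells with DMSO. The groups did not overlap and the log2 fold change was 0.19 ± 0.049 (SE, adjusted p = 0.0231), but the call was lost without any 1 of resistant DMSO replicates 1, 2 and 3 or resistant GNE-7883 replicates 2 and 3, with adjusted p between 0.071 and 0.114.

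FDFT1 showed a smaller difference of the same sign in resistant cells, at 244, 235 and 244 CPM with GNE-7883 and 276, 261 and 270.4 CPM with DMSO. The groups did not overlap, but the log2 fold change of -0.16 ± 0.055 (SE) had an adjusted p of 0.0865. FASN had 495, 365 and 396 CPM with GNE-7883 and 362, 489 and 396 CPM with DMSO, which overlap widely, with a log2 fold change of 0.01 and a 95% interval of -0.23 to 0.25 (adjusted p = 0.981). SREBF1 had 179, 148 and 159 CPM with GNE-7883 and 126, 150.2 and 124 CPM with DMSO, with a log2 fold change of 0.28 ± 0.087 (SE, adjusted p = 0.0581). SREBF1 was thus short of the threshold, with overlapping groups. SREBF2 had a log2 fold change of 0.09 ± 0.051 (SE, adjusted p = 0.342) and INSIG1 one of 0.14 ± 0.050 (SE, adjusted p = 0.111). SREBF1 did pass with DESeq2 (adjusted p = 0.0213) and with limma voom (adjusted p = 3.51e-04). Which members were called depended on 1 sensitive library, which enters the estimate of spread that all groups share: without sensitive DMSO replicate 2, FDFT1 was called lower (adjusted p = 0.00879) and 9 members were called higher, namely LSS, TM7SF2, ACACB, ELOVL5, FADS1, FADS2, SCD, INSIG1 and SREBF1. Without it, calls over all genes went up to 1649 higher and 1411 lower, against 947 higher and 716 lower with it. Leaving out resistant DMSO replicate 1, resistant DMSO replicate 3 or resistant GNE-7883 replicate 3 gave 549, 600 and 550 calls higher and 312, 350 and 304 lower; leaving out resistant GNE-7883 replicate 1 gave 342 lower and replicate 2 gave 457 lower. LSS, TM7SF2 and SREBF1 were also called higher without resistant DMSO replicate 2, and LSS, FADS2 and SREBF1 without resistant GNE-7883 replicate 2 (adjusted p between 0.0125 and 0.0494).

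The difference between the responses of the lines was tested directly, as the log2 response in resistant cells minus that in sensitive cells. It was positive and past the threshold for 12 of 17 cholesterol enzymes and negative for none, where 19% of genes tested were called positive and 16.7% negative, 35.7% in all (edgeR, adjusted p under 0.05). The unadjusted count of negative differences was also 0; DESeq2 called 0 and limma voom 2. Of 12 fatty acid enzymes, 6 were called positive and 2 negative. The median difference was 0.53 for cholesterol enzymes and 0.22 for fatty acid enzymes, against -0.01 for all genes tested. All 4 groups enter this test, so it is not independent of the responses above.

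The largest differences were in enzymes that fell in sensitive cells. FASN differed by 1.16 ± 0.17 (SE, adjusted p = 8.63e-05), MVK by 0.97 ± 0.14 (SE, adjusted p = 4.92e-05), MVD by 0.91 ± 0.19 (SE, adjusted p = 0.0013), FDFT1 by 0.87 ± 0.078 (SE, adjusted p = 4.57e-07) and ELOVL6 by 0.86 ± 0.091 (SE, adjusted p = 2.39e-06). FDPS followed with 0.84 ± 0.087 (SE, adjusted p = 2.18e-06), ACLY with 0.72 ± 0.081 (SE, adjusted p = 4.84e-06) and ACSS2 with 0.68 ± 0.083 (SE, adjusted p = 1.20e-05). The negative differences were those of ACACB, -0.46 ± 0.15 (SE, adjusted p = 0.0232), and ELOVL5, -0.29 ± 0.069 (SE, adjusted p = 0.00407). Their log2 fold changes with GNE-7883 in resistant cells were 0.30 for ACACB and 0.16 for ELOVL5, neither past the threshold. The ACACB difference missed the threshold without any 1 of resistant DMSO replicates 2 and 3 or of the 3 resistant GNE-7883 libraries (adjusted p between 0.0528 and 0.118). For SREBF1 the difference was -0.18 ± 0.12 (SE, adjusted p = 0.286), for SREBF2 0.09 ± 0.072 (SE, adjusted p = 0.361) and for INSIG1 0.17 ± 0.071 (SE, adjusted p = 0.0807), none past the threshold. Without sensitive DMSO replicate 2 the differences of ACACA, SC5D and SQLE were called positive and that of PMVK negative (adjusted p between 0.0012 and 0.0336). INSIG1 was called positive without sensitive DMSO replicate 2 (adjusted p = 0.0202) or resistant GNE-7883 replicate 1 (adjusted p = 0.049).

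Without drug, the resistant line held less of most of these transcripts. In DMSO, 13 of 17 cholesterol enzymes were lower in resistant than in sensitive cells and none was higher, where 24.4% of genes tested were lower and 24.2% higher, 48.7% in all (edgeR, adjusted p under 0.05). The unadjusted count of cholesterol enzymes higher was 0 as well, as it was by DESeq2 and limma voom after adjustment. Of 12 fatty acid enzymes, 10 were lower and 1 was higher. The medians were -0.35 for cholesterol enzymes and -0.37 for fatty acid enzymes, against 0.00 over all genes tested. This comparison uses the same DMSO libraries as the drug comparisons.

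TM7SF2, a sterol reductase after lanosterol (chr11:65111845-65116384, + strand), had 16.3, 18.6 and 15.6 CPM in resistant cells with DMSO and 40.05, 46.4 and 39.3 CPM in sensitive cells with DMSO. Its 3 resistant libraries lay far below the sensitive ones, a log2 fold change of -1.31 ± 0.086 (SE, adjusted p = 3.54e-09). EBP had 54.4, 53.1 and 51.5 CPM in resistant cells and 84.6, 102 and 83.7 CPM in sensitive cells, a log2 fold change of -0.76 ± 0.070 (SE, adjusted p = 2.03e-07). LSS had 166, 186 and 162 CPM in resistant cells and 270.0, 274 and 262 CPM in sensitive cells, a log2 fold change of -0.65 ± 0.068 (SE, adjusted p = 8.78e-07). For neither EBP nor LSS did the lines overlap. MSMO1 followed with -0.63 ± 0.057 (SE, adjusted p = 1.73e-07). Of the fatty acid enzymes, ACACB had 4.12, 4.96 and 5.52 CPM in resistant cells and 11.4, 9.49 and 11.6 CPM in sensitive cells, again apart, a log2 fold change of -1.16 ± 0.11 (SE, adjusted p = 1.99e-07). FADS2 had a log2 fold change of -0.83 ± 0.057 (SE, adjusted p = 6.28e-09), FADS1 of -0.56 ± 0.049 (SE, adjusted p = 1.17e-07) and ACACA of -0.53 ± 0.089 (SE, adjusted p = 1.33e-04).

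Members higher in the resistant line in DMSO were ACSL3, with a log2 fold change of 0.29 ± 0.057 (SE, adjusted p = 5.03e-04), and STARD4, which had 135, 125 and 130.1 CPM in resistant cells and 112, 84.1 and 108 CPM in sensitive cells. STARD4 in sensitive DMSO replicate 2 was the lowest of the 12 libraries. SREBF2 was slightly lower, at 233, 245 and 231 CPM in resistant cells and 272, 258 and 269 CPM in sensitive cells, a log2 fold change of -0.18 ± 0.051 (SE, adjusted p = 0.00984). SREBF1 did not pass the test (-0.19 ± 0.087, SE, adjusted p = 0.083), but was called lower without resistant DMSO replicate 2 or resistant GNE-7883 replicate 1 (adjusted p = 0.011 and 0.0482). INSIG1 had a log2 fold change of 0.02 with an interval of -0.08 to 0.12 (adjusted p = 0.745). The smaller falls of FASN (0.40), ACLY (0.17), IDI1 (0.16) and ELOVL5 (0.15) each rested on single libraries: FASN was lost without resistant DMSO replicate 1 (adjusted p = 0.059), IDI1 without resistant DMSO replicate 2 (0.0869), ACLY without sensitive DMSO replicate 1 or 3 or resistant DMSO replicate 3 (0.0575 to 0.115), and ELOVL5 without sensitive DMSO replicate 1 or 3 or resistant DMSO replicate 2 (0.0616 to 0.102). ELOVL1 was called higher once sensitive DMSO replicate 2 was left out (adjusted p = 0.0161).

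**Figure D3:**
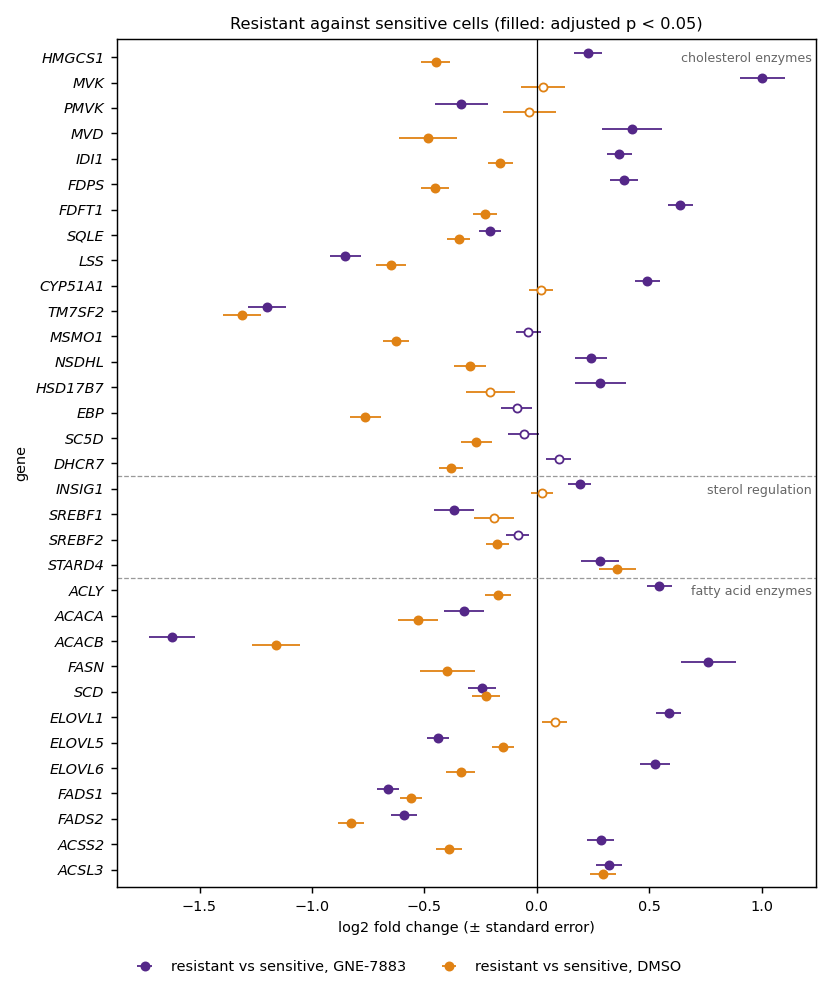
Log2 fold change of resistant against sensitive cells (x axis, with its standard error as a bar) for the 33 members tested (y axis), with GNE-7883 (purple) and with DMSO (orange). Filled points passed an adjusted p under 0.05 in edgeR: most orange points lie left of 0, while with GNE-7883 the cholesterol enzymes divide, from 1.002 for MVK to -1.20 for TM7SF2.

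With GNE-7883 present in both lines, many of these enzymes were higher in resistant cells. Of 17 cholesterol enzymes, 9 were higher and 4 lower, and of 12 fatty acid enzymes 6 were higher and 6 lower, where 30.7% of genes tested were higher and 31.1% lower, 61.9% in all (edgeR, adjusted p under 0.05). MVK had 46.2, 39.4 and 44.3 CPM in resistant cells and 22.1, 19.5 and 23.2 CPM in sensitive cells, both with GNE-7883. The lines did not overlap, with a log2 fold change of 1.002 ± 0.099 (SE, adjusted p = 2.50e-07). FASN had 495, 365 and 396 CPM in resistant cells and 273, 204 and 263 CPM in sensitive cells, a log2 fold change of 0.76 ± 0.12 (SE, adjusted p = 5.68e-05). FDFT1 was higher by 0.64 ± 0.055 (SE, adjusted p = 5.19e-08), CYP51A1 by 0.49 ± 0.055 (SE, adjusted p = 9.63e-07) and MVD by 0.42 ± 0.13 (SE, adjusted p = 0.012), the last not called without sensitive GNE-7883 replicate 2 (adjusted p = 0.0686). Among fatty acid enzymes, ELOVL1 was higher by 0.59 ± 0.055 (SE, adjusted p = 1.38e-07), ACLY by 0.54 ± 0.057 (SE, adjusted p = 5.01e-07) and ELOVL6 by 0.53 ± 0.065 (SE, adjusted p = 3.18e-06).

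ACACB was the member furthest below the sensitive line under the drug, at 5.85, 5.81 and 6.20 CPM in resistant cells and 18.7, 17.5 and 18.7 CPM in sensitive cells. Its log2 fold change was -1.62 ± 0.1 (SE, adjusted p = 1.04e-09), 3.08-fold lower, with no overlap. TM7SF2 differed by -1.20 ± 0.085 (SE, adjusted p = 4.41e-09) and LSS by -0.85 ± 0.068 (SE, adjusted p = 1.89e-08). FADS1 differed by -0.66 ± 0.049 (SE, adjusted p = 7.44e-09), FADS2 by -0.59 ± 0.057 (SE, adjusted p = 1.68e-07) and ELOVL5 by -0.44 ± 0.049 (SE, adjusted p = 9.99e-07). These lower members include both polyunsaturated-chain desaturases on the list. PMVK was lower by 0.34 (adjusted p = 0.0207) and SQLE by 0.21 (adjusted p = 0.00157). The PMVK call was lost without sensitive GNE-7883 replicate 1 or 2 or resistant GNE-7883 replicate 2 (adjusted p 0.0554 to 0.129), and that of HSD17B7 as higher (log2 0.28) without sensitive GNE-7883 replicate 1 or 2 or resistant GNE-7883 replicate 3 (adjusted p 0.0538 to 0.179). INSIG1 was higher in resistant cells by 0.19 ± 0.050 (SE, adjusted p = 0.0039), SREBF1 lower with -0.37 ± 0.087 (SE, adjusted p = 0.00163), and SREBF2 not past the threshold at -0.09 ± 0.051 (SE, adjusted p = 0.162). DHCR7 (log2 0.10, adjusted p = 0.138) was called higher without sensitive DMSO replicate 2, resistant DMSO replicate 2 or resistant GNE-7883 replicate 2 (adjusted p 0.0296 to 0.0433).

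Set side by side, several members shared the same set of calls. For 6 cholesterol enzymes (HMGCS1, MVD, IDI1, FDPS, FDFT1 and NSDHL) and 4 fatty acid enzymes (ACLY, FASN, ELOVL6 and ACSS2), the gene fell with GNE-7883 in sensitive cells, was lower in resistant cells in DMSO, and was higher in resistant cells under GNE-7883. For MVK, CYP51A1, HSD17B7 and ELOVL1 the first and last of these calls were made but the lines did not pass the test in DMSO. For MSMO1, EBP, SC5D and DHCR7 the gene fell with the drug in sensitive cells, was lower in resistant cells in DMSO, and did not pass the test between the lines under GNE-7883. LSS, ACACB, ELOVL5 and FADS1 rose with the drug in sensitive cells and were lower in resistant cells under both treatments. TM7SF2, SQLE, ACACA, FADS2 and SCD did not pass the test with the drug in sensitive cells and were lower in resistant cells under both treatments. ACSL3 and STARD4 also did not pass that test and were higher in resistant cells under both treatments. PMVK and SREBF1 rose with the drug in sensitive cells, did not pass between the lines in DMSO, and were lower in resistant cells under GNE-7883. Among these 3 comparisons INSIG1 was called once, as higher in resistant cells under GNE-7883, and SREBF2 once, as lower in resistant cells in DMSO. These comparisons share libraries, so the patterns describe 4 group means and are not separate pieces of evidence. How many of all genes tested show each set of calls was not counted, so whether the sets are particular to the members is not known.

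**Figure D4:**
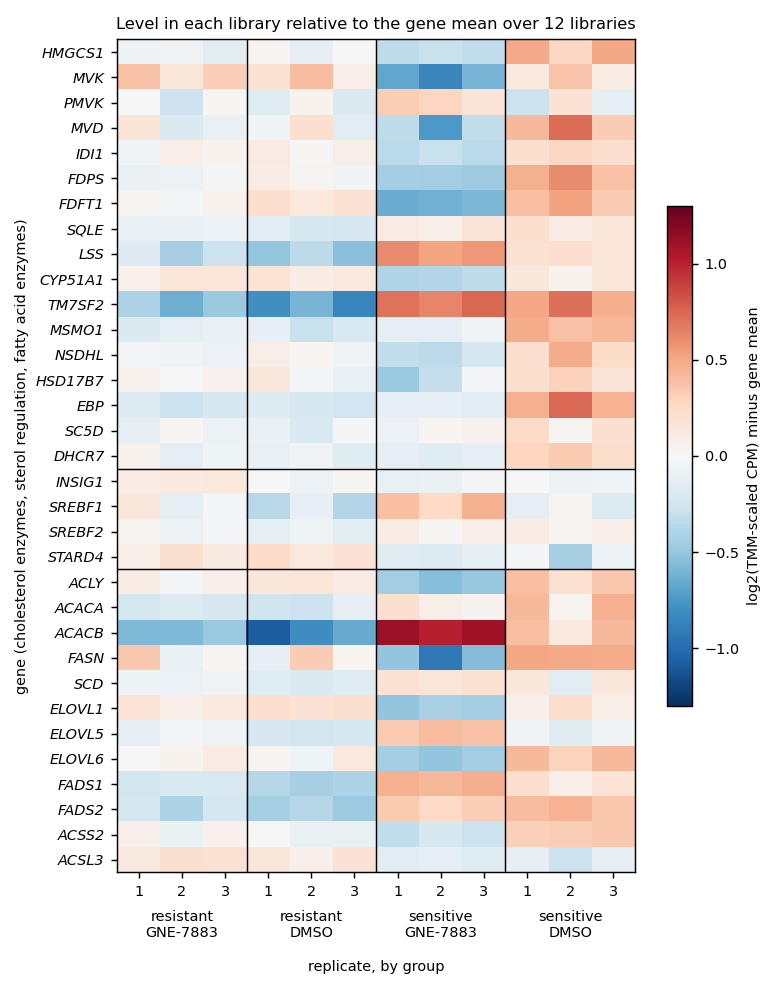
Log2 TMM-scaled CPM minus the gene's mean over the 12 libraries (colour scale, red above and blue below 0) for the 33 members tested (rows) in each library (columns, by group and replicate). HMGCS1, MVD, IDI1, FDPS, FDFT1, NSDHL, HSD17B7 and DHCR7 are highest in sensitive cells with DMSO and lowest in sensitive cells with GNE-7883 by group mean, while LSS, TM7SF2 and ACACB are blue in the 6 resistant libraries.

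Summed per kilobase of transcript, the 17 cholesterol enzymes reached 607 ± 10.2 RPKM (TMM-scaled, SD, n = 3) in resistant cells with GNE-7883, 605 ± 13.2 RPKM in resistant cells with DMSO, 590.1 ± 9.76 RPKM in sensitive cells with GNE-7883 and 809.6 ± 20.02 RPKM in sensitive cells with DMSO. The sensitive DMSO group was the one that stood apart. The fatty acid enzymes summed to 1016 ± 16.7 RPKM in resistant cells with GNE-7883, 969 ± 0.806 RPKM in resistant cells with DMSO, 1109 ± 12.7 RPKM in sensitive cells with GNE-7883 and 1148 ± 66.3 RPKM in sensitive cells with DMSO. In the fatty acid sums the sensitive GNE-7883 and sensitive DMSO groups differed by less than the spread of the DMSO libraries. Of 17 cholesterol enzymes, 12 had their highest group mean in sensitive cells with DMSO, and 10 had their lowest in sensitive cells with GNE-7883 and 6 in resistant cells with DMSO. The same shares were not counted over all genes tested, so whether these counts set the enzymes apart from other genes is not known.

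Per kilobase, SCD was the most abundant member in every group, at 418 ± 4.46 RPKM in resistant cells with GNE-7883, 388 ± 4.65 RPKM in resistant cells with DMSO, 495 ± 6.92 RPKM in sensitive cells with GNE-7883 and 454 ± 48.9 RPKM in sensitive cells with DMSO. SCD alone therefore made up much of the fatty acid sum. ACACB was the least abundant member tested, at 0.63 ± 0.0223 RPKM in resistant cells with GNE-7883, 0.516 ± 0.0745 RPKM in resistant cells with DMSO, 1.94 ± 0.0729 RPKM in sensitive cells with GNE-7883 and 1.15 ± 0.124 RPKM in sensitive cells with DMSO. SREBF2 stood above SREBF1 in each group, at 46.8 ± 1.85 RPKM against 36.1 ± 3.44 RPKM in resistant cells with GNE-7883 and at 49.6 ± 1.54 RPKM against 46.6 ± 3.19 RPKM in sensitive cells with GNE-7883. In those sensitive cells the gap was within the spread of SREBF1.

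**Figure D5:**
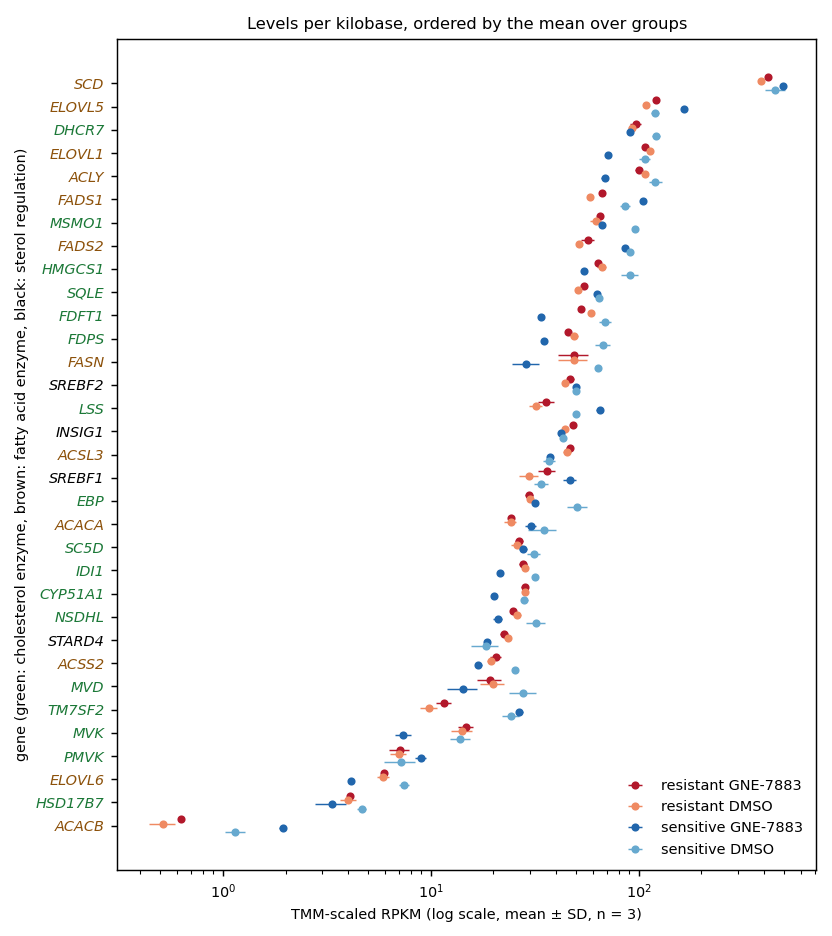
TMM-scaled RPKM (x axis, log scale, mean with SD of n = 3) of the 33 members tested (y axis, ordered by their mean over groups), by group (colour). SCD lies highest in all 4 groups and ACACB lowest.

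Other genes of the pathway were counted from lists that had been drawn up with earlier results of these data known. Of 10 genes that process or retain SREBP, 6 rose and 2 fell with GNE-7883 in sensitive cells (edgeR, adjusted p under 0.05), where 29.8% of all genes tested rose and 28.4% fell. MBTPS1, the first protease that cuts SREBP, rose by 0.49 and INSIG2, the relative of INSIG1, by 0.47, while ERLIN1, which acts in sterol-driven degradation in the endoplasmic reticulum, fell by 0.42. In resistant cells 0 of the 10 were called by edgeR, where 9.22% of all genes were, and 0 had an unadjusted p under 0.05. Of 10 genes of sterol handling, 3 rose and 4 fell in sensitive cells, near those shares of all genes. ACAT2, the cytosolic thiolase that feeds HMGCS1, had 47.04 ± 0.544 CPM with GNE-7883 and 170.4 ± 10.4 CPM with DMSO, a log2 fold change of -1.86 ± 0.058 (SE, adjusted p = 7.12e-13), larger than that of any member. TMEM97, a sterol-regulated membrane protein, fell by 1.68, while SOAT1, which esterifies cholesterol, rose by 0.46 and STARD3, a cholesterol carrier of late endosomes, by 0.25. In resistant cells ACAT2 had 89.2 ± 1.62 CPM with GNE-7883 and 120.2 ± 4.67 CPM with DMSO and also fell, by 0.43 (adjusted p = 1.21e-04), and SOAT1 fell by 0.30. The responses of ACAT2 differed between the lines by 1.43 ± 0.079 (SE, adjusted p = 3.89e-09).

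Some members share genomic sequence with other genes, and the library kit does not keep strand, so reads there could be split or misassigned. MVK overlaps MMAB on the opposite strand, and TM7SF2 overlaps VPS51 and SREBF1 overlaps RAI1. FADS1 and FADS2 overlap each other, and FADS2 also overlaps FEN1, a replication gene. The overlapping genes were looked up for this reason: with GNE-7883 in sensitive cells MMAB had a log2 fold change of -0.356, RAI1 of 0.285 and FEN1 of -0.913, and VPS51 had one of -0.318 in resistant against sensitive cells in DMSO. Their part in the values of the members was not tested. Pseudogenes named after members also had counts: counts of HSD17B7P2 were 12.8% of those of HSD17B7, counts of CYP51A1P2 were 8.48% of those of CYP51A1, and counts of FDPSP1 were 6.69% of those of FDPS. The values of these members carry that uncertainty.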

How the data were processed

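RNA-seq libraries of 12 cell samples were read on an Illumina HiSeq2500, per the labels' protocols. The authors deposited whole-number counts per gene, not normalized, and RPKM values for the same genes; the deposited RPKM equals counts over gene length and library total to within a relative deviation of 1.78e-07 over 13411 genes with a mean of at least 50 counts. GSNAP, GRCh38.p10 and limma are named in the submitters' processing notes, with no roles. The counter, annotation and strand setting were not given in the sources used here. Symbols were matched for 57532 identifiers.

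From the counts, edgeR 4.0.16 (R 4.3.3; filterByExpr, TMM, glmQLFit and glmQLFTest, 1 mean for each of 4 groups, 8 residual degrees of freedom) tested 18035 genes with Benjamini-Hochberg adjustment over all of them, in 5 comparisons, and called an adjusted p under 0.05. The scripts were first tested on simulated data. The alternatives were DESeq2 1.42.0 and limma 3.58.1 voom, other scaling and filtering, other samples in the fit, a replicate block and each library left out. The members and lists were chosen with earlier results of these data known. In each comparison full statistics were given for SREBF1, SREBF2, INSIG1 and up to 4 called enzymes of each arm with the largest log2 fold change in each direction, and up to 2 genes per direction from each pathway list. A gene that this rule names is not reported here. Motif counts are descriptions. The summed RPKM values are TMM-scaled, computed here from counts and the gene lengths in the deposited table. Intervals cover the spread between libraries as the model estimates it. They use a normal multiplier of the standard error, so with few libraries they may be somewhat narrower than stated.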

Additional observations from a re-analysis of the deposited data

Results flagged for a closer look

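The response to GNE-7883 differed between the resistant and the sensitive line for 20 of 33 members tested, where 35.7% of all genes tested were called, by the test of the difference itself (edgeR, adjusted p under 0.05), with values on the log2 scale as resistant minus sensitive. Among cholesterol enzymes, the larger differences were MVK by 0.97, MVD by 0.91, FDFT1 by 0.87, FDPS by 0.84, HMGCS1 by 0.68 and EBP by 0.67. The smaller ones were MSMO1 by 0.59, NSDHL by 0.54, IDI1 by 0.53, HSD17B7 by 0.49, DHCR7 by 0.48 and CYP51A1 by 0.47. Among fatty acid enzymes, the responses differed for FASN by 1.16, ELOVL6 by 0.86, ACLY by 0.72, ACSS2 by 0.68, ELOVL1 by 0.51 and FADS2 by 0.24. The negative ones were ACACB, at -0.46, and ELOVL5, at -0.29. The call of FADS2 was lost without sensitive GNE-7883 replicate 2 (adjusted p = 0.0729) and that of HSD17B7 without sensitive GNE-7883 replicate 1 (adjusted p = 0.063). No group here has the 4 libraries that a check for a lone outlying library needs.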

How the results depend on the processing

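Over 165 member results recomputed under the alternatives, no log2 fold change with a call changed sign, calls were lost for 13 results and gained for 27. Counts of calls stayed within 1.5 times, except as follows. With only the compared groups in the fit, 1 cholesterol enzyme rose with GNE-7883 in sensitive cells; in resistant cells 1 cholesterol enzyme fell, 3 fatty acid enzymes rose and 1131 of all genes fell. With limma voom, resistant cells had 2531 genes higher and 2400 lower, 3 cholesterol enzymes higher and 2 lower, and 5 fatty acid enzymes higher; 2 fatty acid enzymes were higher in resistant cells in DMSO, and the difference of responses was called negative for 2 cholesterol enzymes and 1 fatty acid enzyme. DESeq2 called 2 fatty acid enzymes higher in resistant cells. Single calls lost were PMVK in sensitive cells with only the compared groups (adjusted p = 0.0555), SC5D there with that fit (0.0737), with DESeq2 (0.0513) and with its size factors (0.0506), IDI1 and ELOVL5 between the lines in DMSO without a count filter (0.089 and 0.051), ELOVL5 there with only the compared groups (0.0524), and the ACACB difference with voom (0.0572). The cause was not tested. That fit with only the compared groups cannot be made for the difference of responses, which needs all 4 groups.

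With each library left out in turn, cholesterol enzymes called higher in sensitive cells numbered 1 to 3. In resistant cells all genes called ran over 549 to 1649 higher and 304 to 1411 lower, cholesterol enzymes over 0 to 2 higher and 0 to 1 lower, and fatty acid enzymes over 0 to 5 higher. Fatty acid enzymes higher in resistant cells in DMSO numbered 1 to 2, and negative differences of responses 0 to 1 for cholesterol and 1 to 2 for fatty acid enzymes. The remaining counts stayed within 1.5 times.

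Libraries with the same replicate number showed at most weak correlations of their deviations, from -0.119 to 0.180 over 18 such pairs, with 1 over 0.1. Over 36 pairs with different numbers the correlations ran from -0.159 to 0.109, with 2 over 0.1. With 3 libraries a group, these values cannot settle whether the numbers pair the samples. With a replicate block, calls higher and lower were 5304 and 5001 in sensitive cells, 807 and 565 in resistant cells, 4286 and 4308 between the lines in DMSO, 5491 and 5559 between them with GNE-7883, and 3295 and 2916 for the difference of responses; SC5D in sensitive cells (adjusted p = 0.0586) and HSD17B7 between the lines with GNE-7883 (0.053) were not called under the block. Scaling by DESeq2 size factors moved the median log2 fold change of all genes by at most 0.0072. With 3 libraries a group and 1 resistant line, small differences, mainly in resistant cells, are not settled at this depth and spread.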

Other observations

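The liver X receptors sense oxysterols and drive cholesterol export. Of 7 genes, the receptors NR1H2 and NR1H3 and 5 of their targets, 6 rose with GNE-7883 in sensitive cells and 0 fell (edgeR, adjusted p under 0.05, and 0 lower at an unadjusted p under 0.05). ABCG1, a sterol exporter, had 18.4 ± 0.882 CPM with GNE-7883 and 3.88 ± 0.237 CPM with DMSO (SD, n = 3), a log2 fold change of 2.24 ± 0.093 (SE, adjusted p = 1.73e-11). ABCA1, the exporter that loads apolipoprotein particles, had 305 ± 23.5 CPM with GNE-7883 and 105 ± 27.1 CPM with DMSO, a log2 fold change of 1.54 ± 0.14 (SE, adjusted p = 9.78e-08). In resistant cells ABCG1 had 5.39 ± 0.566 CPM with GNE-7883 and 4.61 ± 0.242 CPM with DMSO, and the 1 call among the 7 was MYLIP, a ubiquitin ligase for lipoprotein receptors, with 0.30 ± 0.083 (SE, adjusted p = 0.0359). Of all genes tested 9.22% were called in resistant cells, so 1 of 7 is near that share. The responses of the lines differed for 5 of the 7, each with a negative sign, by -2.02 ± 0.14 for ABCG1 (SE, adjusted p = 2.42e-08) and -1.55 ± 0.19 for ABCA1 (SE, adjusted p = 1.20e-05). Of all genes tested 35.7% were called for this difference, 16.7% with a negative sign. With GNE-7883 in sensitive cells 29.8% of all genes tested rose, and the gene of the 7 that was not called was NR1H2, at 0.07 ± 0.11 (SE, adjusted p = 0.604).

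A list of fatty acid oxidation genes also held genes that are not its enzymes, such as PPARGC1A and ANGPTL4. Of its 10 genes tested, 7 rose and 1 fell with GNE-7883 in sensitive cells (edgeR, adjusted p under 0.05). Over all genes tested there, 29.8% rose and 28.4% fell. ANGPTL4, a fasting-induced lipase inhibitor, rose by 1.57 ± 0.22 (SE, adjusted p = 1.74e-05) and PPARGC1A, a coactivator of mitochondrial genes, by 0.78 ± 0.23 (SE, adjusted p = 0.00859), while ACADM, a medium-chain acyl-CoA dehydrogenase, fell by 0.32. ANGPTL4 and PPARGC1A were low, with means of 0.783 and 0.459 CPM over the 12 libraries. The 11 genes of the list summed to 787 ± 9.61 CPM with GNE-7883 and 727 ± 31.9 CPM with DMSO in sensitive cells (SD). In resistant cells edgeR called 0 of the 10, where 9.22% of all genes were called, with 1 higher and 2 lower at an unadjusted p under 0.05. Of 24 other lipid synthesis genes tested, 5 rose and 7 fell in sensitive cells, 12 in all, where 58.1% of all genes tested were called. DGAT2, which completes triglycerides, rose by 1.40 ± 0.18 (SE, adjusted p = 7.14e-06) and IDH1, a cytosolic source of NADPH, by 0.46, while FADS3, a desaturase beside FADS1 and FADS2, fell by 1.56 and ELOVL2, an elongase of polyunsaturated chains, by 1.005. IDH1 was lower in resistant than in sensitive cells in DMSO, with a log2 fold change of -1.48 ± 0.053 (SE, adjusted p = 2.55e-12).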
